A study of Mus musculus with 6 samples.

Results

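The mitochondrial ribosomal proteins are the nuclear-encoded proteins of the ribosome that works inside mitochondria. They were taken as all protein-coding genes of the mouse annotation GENCODE M21 whose symbol begins with Mrpl or Mrps followed by a digit, and 77 of the 78 such genes had reads in mouse liver, of 55536 genes in the files. Of the 77, 48 are named for the large subunit (Mrpl) and 29 for the small subunit (Mrps). Their mRNA was measured by RNA sequencing in 6 liver libraries of male C57BL/6 mice, an inbred laboratory strain, aged 6 weeks when dosing began. For 8 weeks, with dosing 2 times a week, 3 libraries' mice received polystyrene microplastics (PS-MP, small plastic particles) by mouth at 0.4 mg per day, and the mice of the other 3 libraries received water. No genotype, transgene or further agent is named for either group. Whether each library stands for its own mouse is not stated, and p-values cover the library-to-library spread only. Values are FPKM as deposited, fragments per kilobase of exon, scaled to the library's total.

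Mitochondria keep a small genome of their own, which encodes core subunits of the respiratory chain and ATP synthase. These are translated by a ribosome whose 2 RNAs come from mitochondrial DNA, while all of its proteins are encoded in the nucleus, made in the cytosol and imported. The large subunit joins amino acids and holds the exit tunnel, and the small subunit binds the mRNA and reads its codons. Some of these proteins descend from those of bacterial ribosomes and others were added in mitochondria. Hepatocytes, the main cells of the liver, are rich in mitochondria.

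The library totals ran from 13082210 to 16948343 reads. All 10 hepatocyte markers (Alb and others) were above 0 in every library, at a summed 35887 to 45760 FPKM. The summed FPKM of 10 brain markers was 2.02, 1.86 and 2.17 in water replicates 1 to 3 and 5.78, 3.42 and 38.6 in PS-MP replicates 1 to 3, with 2, 3 and 5 of the 10 at 0 in the water libraries and none at 0 in the PS-MP libraries. The reads of Ucp1, which defines brown fat, numbered 139, 0 and 15 in water and 0, 0 and 68 in PS-MP. The 7 brown fat markers summed to 179, 136 and 105 FPKM in water and to 93.1, 70.7 and 80.3 FPKM in PS-MP. Most of each sum is Elovl3, at 132 FPKM in water replicate 2 with its 0 Ucp1 reads, so the sum does not follow Ucp1. Of the 6 of these markers that were tested, 5 had a negative log2 fold change and 1, Ppargc1a, a positive one. The 7 muscle markers summed to 0.0670 to 0.419 FPKM and the 5 immune markers to 50.7 to 63.8 FPKM. The part of these transcripts in the results below was not tested, and in bulk liver RNA fewer cells of a type and less RNA per cell cannot be told apart.

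The first question was whether the mRNA level of any mitochondrial ribosomal protein differed between PS-MP and water. No member changed. All 77 passed the low-count rule (at least 0.66 CPM, reads scaled to library total, in 3 libraries and 15 reads in all) and entered the test, limma-trend on log2(FPKM + 0.5), with Benjamini-Hochberg adjustment over the 13299 genes tested. It called 0 of 77 members at an adjusted p of 0.05, beside 0.489% of all genes tested. The lowest adjusted p of a member in limma-trend was 0.306. At an unadjusted p of 0.05, 4 of 77 passed, all with lower values under PS-MP (Mrpl35, Mrps6, Mrps21 and Mrps12), beside 5.57% of all genes that passed as lower and 7.49% as higher. The test limma-voom on reads recovered from the FPKM values also called 0 of 77 members, and 4 at an unadjusted p of 0.05, beside 1% and 13.3% of all genes.

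The differences were small in either direction. The log2 fold change of PS-MP over water, on the scale of FPKM + 0.5, ran from -0.33 for Mrps6 to 0.19 for Mrpl54, with quartiles of -0.13 and -0.0053 and a median standard error of 0.099. It was within 0.1 of 0 for 48 members and beyond 0.2 for 7. The 95% interval lay within 1.5-fold either way for 75 of 77 members, against 82.8% of all genes tested, and within 2-fold for all 77. The exceptions at 1.5-fold were Mrpl34, with an interval of -0.68 to 0.03, and Mrps6, with -0.61 to -0.05. Mrpl43, a mitochondria-specific protein of the large subunit whose exons overlap Twnk on the opposite strand, had the widest interval, -0.52 to 0.48.

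More members were lower than higher, by little. A negative log2 fold change was found for 60 of 77 members, against 46.3% of all genes tested, and the median was -0.053, against 0.014 for all genes. Members of 1 ribosome share libraries and are not independent, so this is a description of these 6 libraries. With TMM scaling, which centres the libraries on the bulk of genes, 66 of 77 were negative and the median was -0.084 against -0.012 for all genes. The 3 PS-MP values lay all above or all below the 3 water values for 9 of 77 members, 11.7%, against 19.2% of all genes tested. Of these, 3 were higher (Mrpl24, Mrpl54 and Mrps25), against 11.1% of all genes, and 6 were lower (Mrpl27, Mrpl35, Mrpl50, Mrps6, Mrps27 and Mrps35), against 8.12%.

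**Figure D1:**
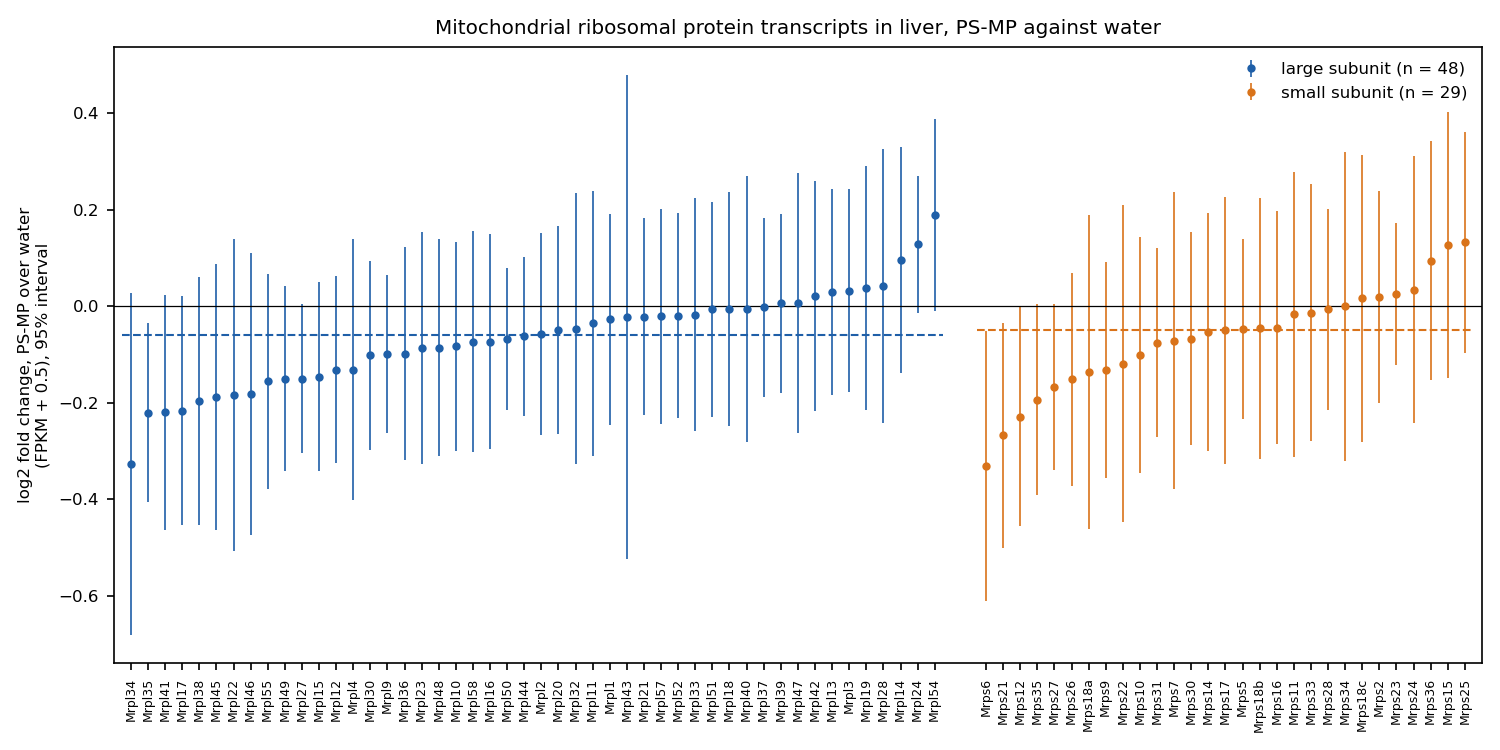
Log2 fold change of PS-MP over water, on the scale of FPKM + 0.5 (vertical axis), for each of the 77 members, ordered within the large and the small subunit, with 95% intervals from limma-trend and dashed lines at the subunit medians. The estimates run from -0.33 to 0.19, and the medians are -0.060 for the large and -0.050 for the small subunit.

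The second question was whether the large and the small subunit differed. The medians of both were below 0 and close to each other, and no test of their difference was made. For the 48 large-subunit members the median log2 fold change was -0.060, with 38 negative, and for the 29 small-subunit members it was -0.050, with 22 negative. The difference of the medians, large minus small, was -0.0099, and it turned to 0.0014 without PS-MP replicate 1 and to 0.016 without PS-MP replicate 3. Some names do not follow the structure: Mrps30 and Mrps18a sit in the large subunit, and Mrps36 belongs to the 2-oxoglutarate dehydrogenase complex. With members placed by structure, the median was -0.065 over 50 large-subunit and -0.049 over 26 small-subunit members.

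The summed level of the large subunit was 457, 466 and 419 FPKM in water replicates 1 to 3 and 412, 445 and 411 FPKM in PS-MP replicates 1 to 3. That of the small subunit was 206, 206 and 187 FPKM in water and 188, 196 and 184 FPKM in PS-MP. In both subunits water replicates 1 and 2 were the highest libraries, and water replicate 3 lay among the PS-MP libraries. The ratio of the small to the large sum was 0.451, 0.442 and 0.445 in water and 0.456, 0.441 and 0.447 in PS-MP, or 0.446 ± 0.00431 and 0.448 ± 0.00776 (SD, n = 3 each). The ratios of the groups overlapped, and they varied far less between libraries than the sums did. Scaling to a library's total cancels in the ratio, so part of this smaller spread is by construction.

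The members' levels were also summed over both subunits. The summed level of all 77 was 662, 672 and 606 FPKM in water and 599.9, 641 and 594 FPKM in PS-MP, or 647 ± 35.8 and 612 ± 25.6 (SD, n = 3 each), and the groups overlapped. Set against each gene's own mean over the 6 libraries, the median member deviated by 0.07, 0.08 and -0.04 on the log2 scale in the water libraries and by -0.06, 0.03 and -0.06 in the PS-MP libraries. The highest value of a member was in water replicates 1 to 3 for 18, 30 and 9 members and in PS-MP replicates 1 to 3 for 5, 12 and 3. The lowest value was in these libraries for 9, 2 and 16 and for 22, 10 and 18 members, so each library was lowest for some members and highest for others. The order of the members by level was nearly the same in each library, with a Spearman rho over the 77 members of 0.970 to 0.987 among the 15 pairs of libraries, which share gene lengths and annotation. The median coefficient of variation of a member was 9.86% among the water libraries and 7.64% among the PS-MP libraries.

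**Figure D2:**
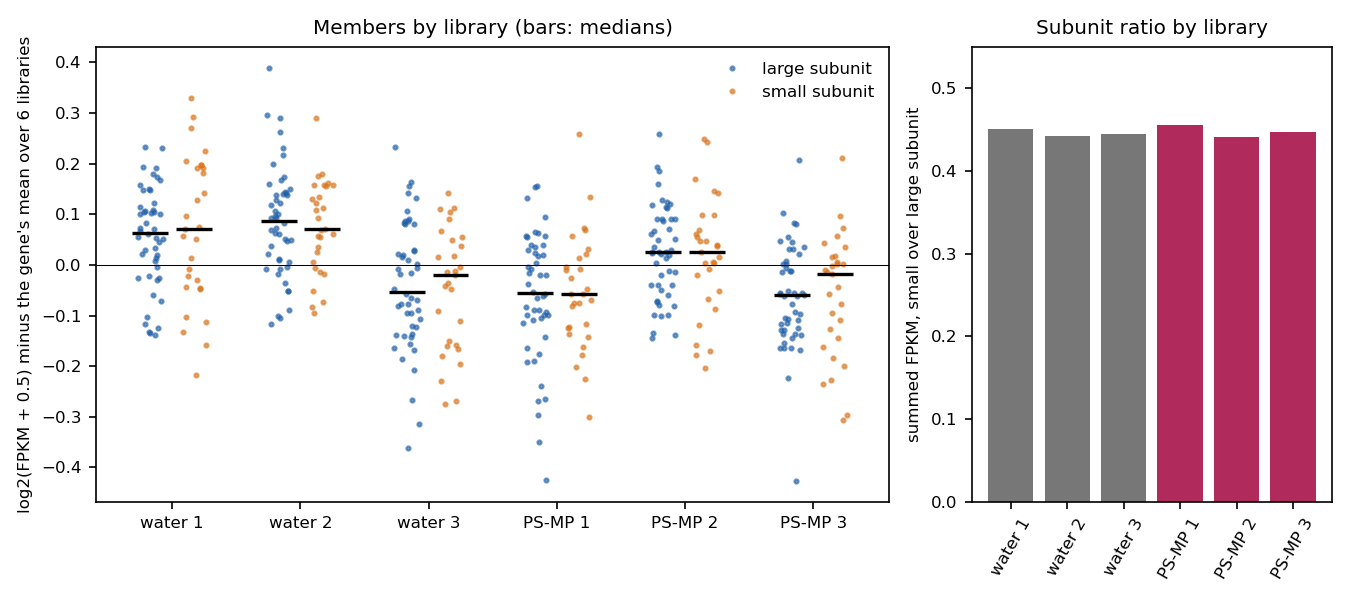
Left, log2(FPKM + 0.5) of each member minus its mean over the 6 libraries, by library and subunit, with bars at the medians. Right, the summed FPKM of the small subunit over that of the large subunit in each library. Water replicates 1 and 2 sit highest on the left, and the ratio on the right stays between 0.441 and 0.456.

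The 5 members with negative differences and the smallest unadjusted p were Mrpl35, Mrps6, Mrps21, Mrps12 and Mrps35. Mrpl35, a bacterial-type protein of the large subunit (ENSMUSG00000052962, chr6:71812997-71826969 on GRCm38, minus strand), was at 4.12, 4.19 and 4.43 FPKM in water and 3.72, 3.47 and 3.52 FPKM in PS-MP. Every PS-MP library lay below every water library. The log2 fold change was -0.22 (SE 0.08, adjusted p = 0.306, limma-trend).

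Mrps6 (ENSMUSG00000039680, chr16:92058270-92112227, plus strand), a small-subunit protein with a bacterial homologue, was at 2.45, 2.66 and 2.11 FPKM in water and 1.596, 2.09 and 1.75 FPKM in PS-MP. The groups did not overlap, although water replicate 3 and PS-MP replicate 2 nearly met. Its log2 fold change was -0.33 (SE 0.12, adjusted p = 0.306, limma-trend). Of its exon bases, 19.9% are also exons of other genes, among them Slc5a3 on the same strand, so its reads cannot be told apart from theirs with certainty.

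Mrps21 (ENSMUSG00000054312, chr3:95862634-95871519, minus strand), the most abundant small-subunit member, was at 22.99, 21.6 and 18.4 FPKM in water and 18.9, 16.8 and 16.1 FPKM in PS-MP. PS-MP replicate 1 lay above water replicate 3, so the groups overlapped. Its log2 fold change was -0.27 (SE 0.10, adjusted p = 0.319, limma-trend). Mrps12, whose bacterial homologue forms part of the site where codons are read (ENSMUSG00000045948, chr7:28739641-28741820, minus strand), was at 14.2, 11.97 and 11.5 FPKM in water and 10.2, 11.5 and 10.1 FPKM in PS-MP. PS-MP replicate 2 lay just above water replicate 3, so the groups overlapped, and the log2 fold change was -0.23 (SE 0.10, adjusted p = 0.379, limma-trend). Mrps35, a mitochondria-specific protein of the small subunit, was at 2.78, 2.86 and 2.87 FPKM in water and 2.46, 2.30 and 2.50 FPKM in PS-MP. All PS-MP values were lower, with a log2 fold change of -0.19 (SE 0.09, adjusted p = 0.390, limma-trend).

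On the higher side, the smallest unadjusted p values belonged to Mrpl54, Mrpl24, Mrps25, Mrps15 and Mrpl14. Mrpl54, a mitochondria-specific protein of the large subunit (ENSMUSG00000034932, chr10:81264713-81266934, minus strand), was at 10.4, 10.9 and 10.5 FPKM in water and 11.4, 13.7 and 11.5 FPKM in PS-MP. All 3 PS-MP values were higher, PS-MP replicate 2 the most, and the log2 fold change was 0.19 (SE 0.09, adjusted p = 0.404, limma-trend). Mrpl24, whose bacterial homologue helps to start assembly of the large subunit, was at 15.7, 14.8 and 15.1 FPKM in water and 16.6, 17.0002 and 16.4 FPKM in PS-MP. These groups did not overlap either, and the log2 fold change was 0.13 (SE 0.06, adjusted p = 0.432, limma-trend). Of the Mrpl24 exon bases, 26.3% are also exon of Rrnad1 on the opposite strand.

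Mrps25, mitochondria-specific and the least abundant member, was at 0.741, 0.745 and 0.628 FPKM in water and 0.883, 0.801 and 0.775 FPKM in PS-MP. The groups did not overlap, but 69.8% of its exon bases are also exon of Nr2c2 on the opposite strand, and its adjusted p in limma-trend was 0.611. The low level of Mrps25 also depends on how reads on both genes were counted, which the sources used here do not give. Mrps15, a small-subunit protein with a bacterial homologue, was at 7.16, 7.91 and 9.11 FPKM in water and 10.2, 8.56 and 7.84 FPKM in PS-MP. Mrpl14, a large-subunit protein at the face between the subunits, was at 16.7, 16.9 and 13.3 FPKM in water and 15.9, 16.8 and 17.3 FPKM in PS-MP. In both, the libraries of the 2 groups were interleaved.

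**Figure D3:**
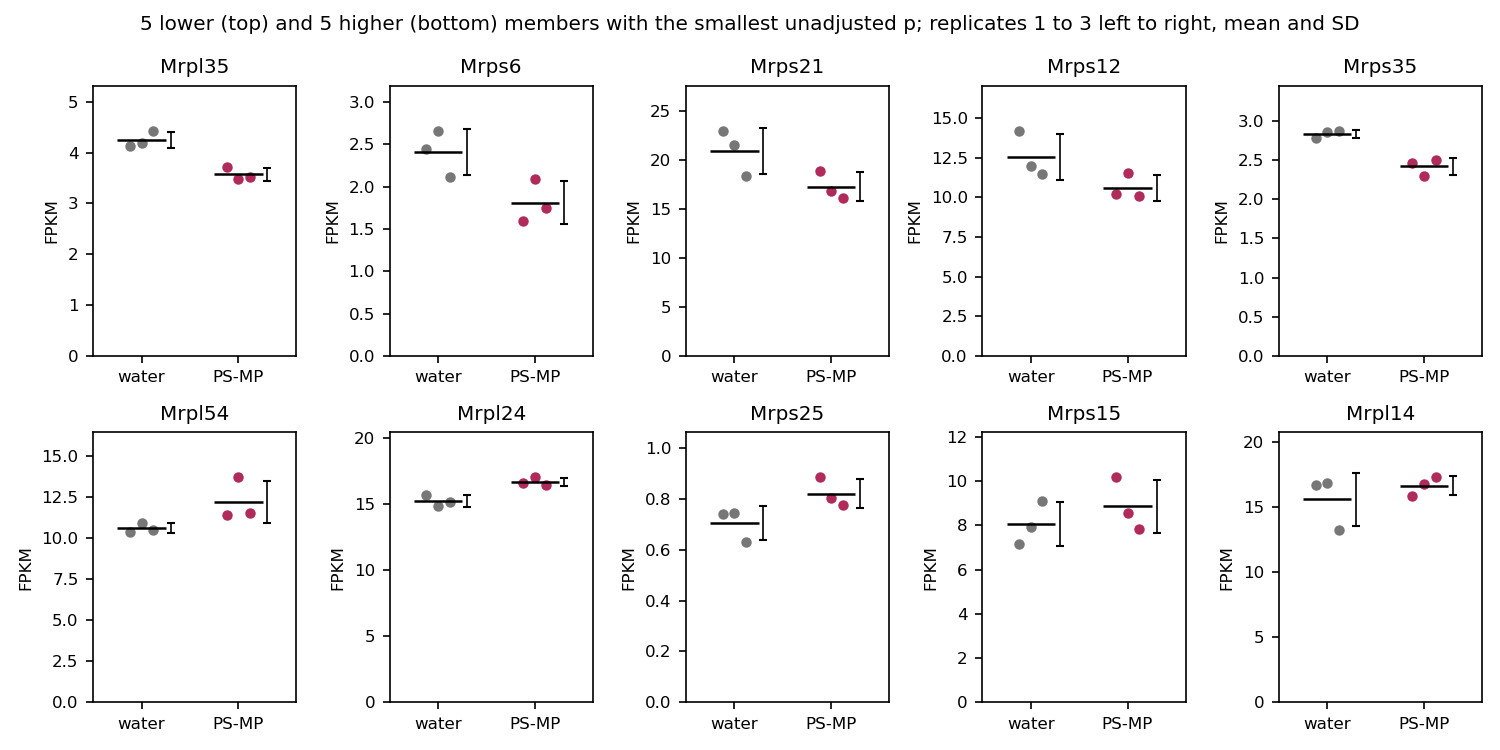
FPKM in each library, with mean and SD (n = 3 per group), of the 5 lower (top) and the 5 higher (bottom) members with the smallest unadjusted p; the vertical axes start at 0. Groups do not overlap for Mrpl35, Mrps6, Mrps35, Mrpl54, Mrpl24 and Mrps25, and no member passed the adjusted threshold.

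The other members are given by class, with Mrps18a and Mrps18b placed as mitochondria-specific and Mrps18c as bacterial-type. The 46 members with a bacterial homologue had a median log2 fold change of -0.052, with 35 negative, and over the 31 mitochondria-specific members it was -0.062, with 25 negative. Within the large subunit it was -0.065 for the 30 bacterial-type and -0.042 for the 18 mitochondria-specific members. Within the small subunit it was -0.049 for 16 and -0.068 for 13. Subunits follow the symbols here, so the 13 include Mrps30, Mrps18a and Mrps36, which by structure are not small-subunit proteins. Of the 77 members, 25 share exon bases with another tested gene, 21 on the opposite and 4 on the same strand, and the sources used here do not give whether counting used strand. Among these 25 the median was -0.022 with 16 negative, and among the 52 others it was -0.068 with 44 negative.

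A few members with known tasks were chosen for their roles after their values were seen. Mrpl12, Mrpl10 and Mrpl11 make up the stalk and its base, where translation factors dock. Their log2 fold changes were -0.13, -0.08 and -0.04. For Mrpl45, which ties the ribosome to the inner membrane, the log2 fold change was -0.19 (SE 0.12), and for Mrpl44, which resembles an RNase III, it was -0.06 (SE 0.07). Mrpl58, a peptidyl-tRNA hydrolase also known as ICT1, had -0.07 (SE 0.10). The 95% interval of each of these 6 included 0.

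The levels spread widely among members. The mean over the 6 libraries ran from 0.762 FPKM for Mrps25 to 25.5 FPKM for Mrpl34, a 33.5-fold range, with a median of 7.78 FPKM in the large and 4.89 FPKM in the small subunit. Reads per member and library ran from 32 to 758, with a median of 246.5, and 76 members were above 1 FPKM in every library. Together they held 0.136% to 0.152% of all reads. The genes lie on 17 chromosomes, 11 of them on chromosome 11 and 8 on chromosome 17.

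Among large-subunit members, Mrpl34, a bacterial-type protein, led at 27.1, 33.05 and 24.96 FPKM in water and 21.9, 27.5 and 18.6 FPKM in PS-MP. Those groups overlapped, with the widest spread of the named members in FPKM, and the log2 fold change was -0.33 (SE 0.15, adjusted p = 0.421, limma-trend). Mrpl12 followed at 23.7, 24.9 and 20.9 FPKM in water and 20.4, 22.4 and 20.4 FPKM in PS-MP, and its range overlapped that of Mrpl34. Mrpl18, next at 18.98, 20.7 and 16.7 FPKM in water and 20.6, 19.03 and 16.6 FPKM in PS-MP, overlapped between the groups, with a log2 fold change of -0.0057 (SE 0.10).

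The lowest large-subunit members were Mrpl33 at 1.21 to 1.504 FPKM, Mrpl23, near the exit tunnel in bacteria, at 1.52 to 1.89 FPKM, and Mrpl19 at 1.61 to 2.04 FPKM over all libraries. Mrpl23 and Mrpl19 overlapped, and Mrpl33 lay just below both. In the small subunit, Mrps21 was followed by Mrps7, at 20.4, 19.5 and 14.3 FPKM in water and 17.6, 17.9 and 15.5 FPKM in PS-MP, and by Mrps2, at 11.2, 13.7 and 11.3 FPKM and 11.9, 13.004 and 11.7 FPKM. Both are bacterial-type proteins, and Mrps21 and Mrps7 overlapped each other while Mrps2 lay below both. At the low end, Mrps25 lay under all values of Mrps6 and Mrps30, which overlapped each other. Mrps30 was at 2.04, 2.35 and 2.201 FPKM in water and 2.03, 1.98 and 2.21 FPKM in PS-MP.

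The order depended in part on the exon length used. The deposited values divide by all merged exons of a gene, with a median of 2533 bases over the members, whereas the principal coding transcript has a median of 1316 bases. Spearman's rho of merged exon length with mean FPKM was -0.70 over the 77 members, as a description. Dividing the same reads by the principal transcript, an alternative chosen after the data were seen, moved Mrpl42 from place 43 to place 1 (37.1 reads per kilobase, scaled as before), Mrpl30 from 28 to 2, Mrps10 from 59 to 3 and Mrpl33 from 76 to 18. Mrps25 kept place 77, and Mrps21, Mrpl12 and Mrpl34 moved from 3, 2 and 1 to 4, 7 and 8. The median was then 13.8 in the large and 11.3 in the small subunit. The length divides all libraries alike and leaves the ratio between the groups as it was.

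**Figure D4:**
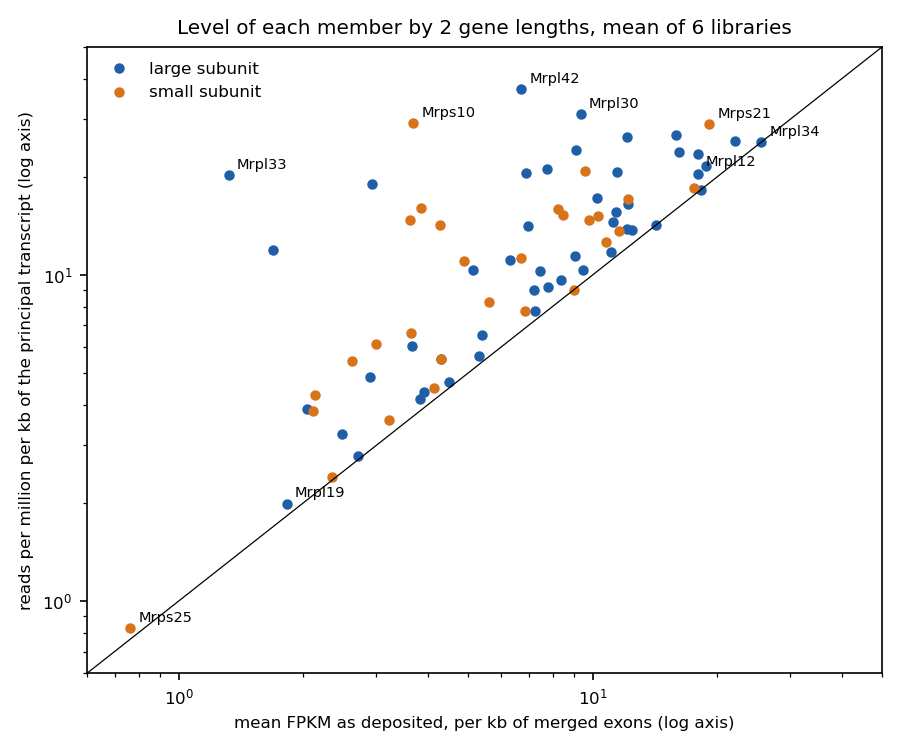
Mean level of each member over the 6 libraries per kilobase of merged exons, as deposited (horizontal, log axis), against the level per kilobase of the principal transcript (vertical, log axis), by subunit; the line marks equal values. Mrpl42, Mrpl30 and Mrps10 stand far above the line, and Mrps25 is lowest on both axes.

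Mrpl53 was the member of the symbol family that did not count. It had 0 reads in all 6 libraries, which does not show that it is not expressed. It lies at chr6:83109040-83109939 on the plus strand, and 88.0% of its 790 exon bases are also exon bases of Ccdc142os or Gm42688. The sources used here do not give how reads on more than 1 gene were counted. In addition, 5 processed pseudogenes of members, at 0 to 2 reads per library, were outside the definition.

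The promoters of these genes are known for binding sites of NRF1, of ETS factors such as GABP, and of YY1, which control many nuclear genes of mitochondria. Promoters of 300 bases (250 before the start site to 50 after its first base) were taken from RefSeq on GRCm38.p6, where 68 of the 77 members had one. Letters were searched on both strands. The NRF1 letters, GCGC on both sides of any 2 bases, were in 14 of 68 members (20.6%), against 6.997% of the 27025 genes in the table. The ETS letters CCGGAAG were in 25 of 68 (36.8%), against 9.93%, and the YY1 letters AAGATGGC in 12 of 68 (17.6%), against 3.19%. The E-box letters CACGTG were in 5 of 68 (7.35%), against 8.09%. The motifs do not overlap in the promoters printed here. By subunit, the NRF1 letters were in 11 of 42 large-subunit and 3 of 26 small-subunit promoters, the ETS letters in 14 and 11, and the YY1 letters in 6 and 6. A match describes letters and is not a binding site.

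The 4 promoters below belong to the members with the smallest unadjusted p that hold such letters, and to Mrps11. The Mrps11 promoter is printed because it overlaps that of Mrpl46 in part. Capitals mark the motif letters as they read on the gene's strand, 5′ to 3′. Mrpl35 (chr6:71823735-71824034, minus strand, inside the GENCODE gene) holds the YY1 letters, Mrps21 (chr3:95871465-95871764, minus strand) those of NRF1 and ETS, and Mrps12 (chr7:28741772-28742071, minus strand) those of YY1 and ETS. Mrps11 (chr7:78782881-78783180, plus strand) holds the YY1 letters. The promoter of Mrpl46 (chr7:78783040-78783339, minus strand) holds none of the letters searched.
Mrpl35: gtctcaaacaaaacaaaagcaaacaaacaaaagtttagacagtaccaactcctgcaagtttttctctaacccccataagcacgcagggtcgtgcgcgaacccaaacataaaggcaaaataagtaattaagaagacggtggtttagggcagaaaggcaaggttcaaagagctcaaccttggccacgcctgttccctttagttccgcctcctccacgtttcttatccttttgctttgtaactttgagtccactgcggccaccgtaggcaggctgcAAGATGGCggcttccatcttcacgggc
Mrps21: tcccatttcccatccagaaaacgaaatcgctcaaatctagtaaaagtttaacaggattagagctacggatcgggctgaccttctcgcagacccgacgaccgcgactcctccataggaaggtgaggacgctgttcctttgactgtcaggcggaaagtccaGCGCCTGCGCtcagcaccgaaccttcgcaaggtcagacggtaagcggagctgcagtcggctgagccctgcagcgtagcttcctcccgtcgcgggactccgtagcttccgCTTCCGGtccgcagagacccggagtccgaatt
Mrps12: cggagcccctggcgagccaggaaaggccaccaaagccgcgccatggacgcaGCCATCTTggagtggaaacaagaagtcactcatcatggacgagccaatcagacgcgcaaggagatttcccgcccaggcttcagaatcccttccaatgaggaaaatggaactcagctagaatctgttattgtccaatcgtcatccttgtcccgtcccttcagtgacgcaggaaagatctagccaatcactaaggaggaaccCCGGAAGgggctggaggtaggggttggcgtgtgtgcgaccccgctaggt
Mrps11: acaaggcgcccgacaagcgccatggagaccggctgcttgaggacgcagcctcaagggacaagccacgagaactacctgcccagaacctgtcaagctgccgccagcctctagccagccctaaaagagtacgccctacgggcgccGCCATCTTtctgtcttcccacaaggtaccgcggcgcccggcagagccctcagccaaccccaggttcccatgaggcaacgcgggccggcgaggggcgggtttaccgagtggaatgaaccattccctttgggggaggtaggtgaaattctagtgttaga

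Mrps12 starts 172 bases from Sars2, the mitochondrial seryl-tRNA synthetase, on opposite strands. Mrps11 and Mrpl46 also start on opposite strands, 412 bases apart by the outermost GENCODE starts, and their exons overlap. Mrps11, a small-subunit protein with a bacterial homologue, was at 3.49, 2.96 and 2.60 FPKM in water and 2.82, 3.41 and 2.68 FPKM in PS-MP, and Mrpl46, mitochondria-specific, was at 8.19, 8.51 and 6.47 FPKM and 6.00, 7.67 and 6.54 FPKM. The groups overlapped in both genes. For the 43 members with NRF1, ETS or YY1 letters the median log2 fold change was -0.062, with 35 negative, and for the 25 without it was -0.053, with 19 negative.

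The partners of these proteins were looked at next, with each list tested by the same limma-trend fit. The mitoribosomal proteins with other symbols (Dap3, Ptcd3, Aurkaip1, Chchd1 and Gadd45gip1) gave 0 of 5 changed and 0 at an unadjusted p of 0.05, with 4 of 5 negative and a median of -0.089. Aurkaip1, a small-subunit protein, was at 13.8, 14.1 and 12.5 FPKM in water and 12.2, 12.3 and 13.1 FPKM in PS-MP, and Ptcd3, a pentatricopeptide protein of the small subunit, at 6.20, 5.87 and 6.57 FPKM and 5.91, 5.59 and 5.94 FPKM. Both overlapped between the groups.

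The 2 RNAs of the mitoribosome are mt-Rnr2 of the large and mt-Rnr1 of the small subunit. The large-subunit RNA mt-Rnr2 was at 886, 780.1 and 910.2 FPKM in water and 1127, 976 and 1034 FPKM in PS-MP. Each PS-MP library was higher, with a log2 fold change of 0.28 (SE 0.10), but the adjusted p was 0.293 in limma-trend. The small-subunit RNA mt-Rnr1 was at 1005, 874 and 988 FPKM in water and 1093, 998 and 911 FPKM in PS-MP, with overlapping groups (log2 fold change 0.07, SE 0.10, adjusted p = 0.830, limma-trend). The ratio of mt-Rnr2 to mt-Rnr1, chosen after the values were seen, was 0.882, 0.893 and 0.921 in water and 1.03, 0.977 and 1.14 in PS-MP. It did not overlap between the groups, at a log2 difference of 0.22. A 2-sided exact permutation test of the ratio gave p = 0.1, the smallest value it can give with so few libraries. Since the ratio was also chosen for its values, no conclusion is drawn from this p. The sources used here do not give whether RNA was selected by poly(A) tails or depleted of rRNA.

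Of 14 tested translation factors, which start, extend and end translation in mitochondria, 0 changed and 0 passed an unadjusted p of 0.05, with 8 negative and a median of -0.022. The smallest p values were those of Mtrf1l, a release factor, at 1.07, 1.21 and 1.10 FPKM in water and 1.45, 1.27 and 1.32 FPKM in PS-MP, and Mtif3, an initiation factor, at 3.53, 3.71 and 3.68 FPKM and 3.79, 4.12 and 4.29 FPKM. PS-MP was higher in both without overlap, by 0.18 and 0.14 on the log2 scale. Of 25 assembly factors, 0 changed, and the median was -0.020. At an unadjusted p of 0.05, beside 7.49% of all genes tested as higher and 5.57% as lower, 1 passed as higher and 1 as lower. These were Mpv17l2, at 4.78, 4.55 and 5.001 FPKM in water and 6.19, 6.26 and 5.53 FPKM in PS-MP (log2 fold change 0.30, adjusted p = 0.197, limma-trend), whose exons overlap Rab3a, and Mettl15, an rRNA methyltransferase, at 1.62, 1.74 and 1.82 FPKM and 1.48, 1.27 and 1.36 FPKM (-0.25, adjusted p = 0.333, limma-trend).

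Of 17 mitochondrial aminoacyl-tRNA synthetases, which load tRNAs, 0 changed, with a median of -0.0070. At an unadjusted p of 0.05, 1 passed as higher and 1 as lower, beside 7.49% and 5.57% of all genes tested. Lars2, for leucine, was at 27.05, 23.7 and 28.6 FPKM in water and 42.8, 28.7 and 32.01 FPKM in PS-MP, and Cars2, for cysteine, at 1.37, 1.59 and 1.32 FPKM and 1.11, 0.936 and 1.25 FPKM. Neither group pair overlapped, and the adjusted p values in limma-trend were 0.352 and 0.375. Of the 13 mRNAs of mitochondrial DNA, which this ribosome translates, 0 changed and 0 passed an unadjusted p of 0.05, with 8 negative and a median of -0.0085. The 2 with the smallest p, mt-Nd4l and mt-Co2, were listed at 21.1 to 101 FPKM and 42.3 to 225 FPKM, far below mt-Co1 at 20251 to 23444 FPKM, and are uncertain. Of 81 tested cytosolic ribosomal proteins, 0 changed and 2 passed an unadjusted p of 0.05, both lower, beside 5.57% of all genes tested. Of the 81, 61 were negative, against 46.3% of all genes tested. Their median was -0.041, near that of the mitochondrial ribosomal proteins.

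Among 13 regulators of these genes, 0 changed in limma-trend. At an unadjusted p of 0.05, 3 passed, all higher, beside 7.49% of all genes tested that passed as higher. Ppargc1b, a coactivator of mitochondrial genes, was at 1.91, 1.77 and 2.24 FPKM in water and 3.45, 3.22 and 4.27 FPKM in PS-MP. Each PS-MP library was higher, with a log2 fold change of 0.74 (SE 0.13, adjusted p = 0.0643, limma-trend). It passed in limma-voom at an adjusted p of 0.0336 and with robust empirical Bayes in limma at 0.0487. Esrra, a nuclear receptor that works with it, was at 3.68, 4.76 and 3.85 FPKM in water and 5.42, 5.61 and 6.54 FPKM in PS-MP (0.47, adjusted p = 0.152, limma-trend), and its exons overlap Trmt112. Ppargc1a, a related coactivator also on the brown fat list, was at 2.14, 2.89 and 2.97 FPKM in water and 4.46, 7.08 and 3.77 FPKM in PS-MP (0.79, adjusted p = 0.184, limma-trend).

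These 3 regulators were named for their small p, which goes with groups that do not overlap. They were the 3 of 13 regulators whose PS-MP libraries all lay above the water libraries, beside 11.1% of all genes tested. The brain markers were also higher in the PS-MP libraries, and their part was not tested. For the factors named for the promoter letters, log2 fold changes were -0.07 for Nrf1, 0.0011 for Gabpa and 0.05 for Yy1, each with overlapping groups. For Tfam, which packages mitochondrial DNA, the log2 fold change was 0.01. Beside these values, 17 of the 77 members had a positive and 60 a negative log2 fold change.

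**Figure D5:**
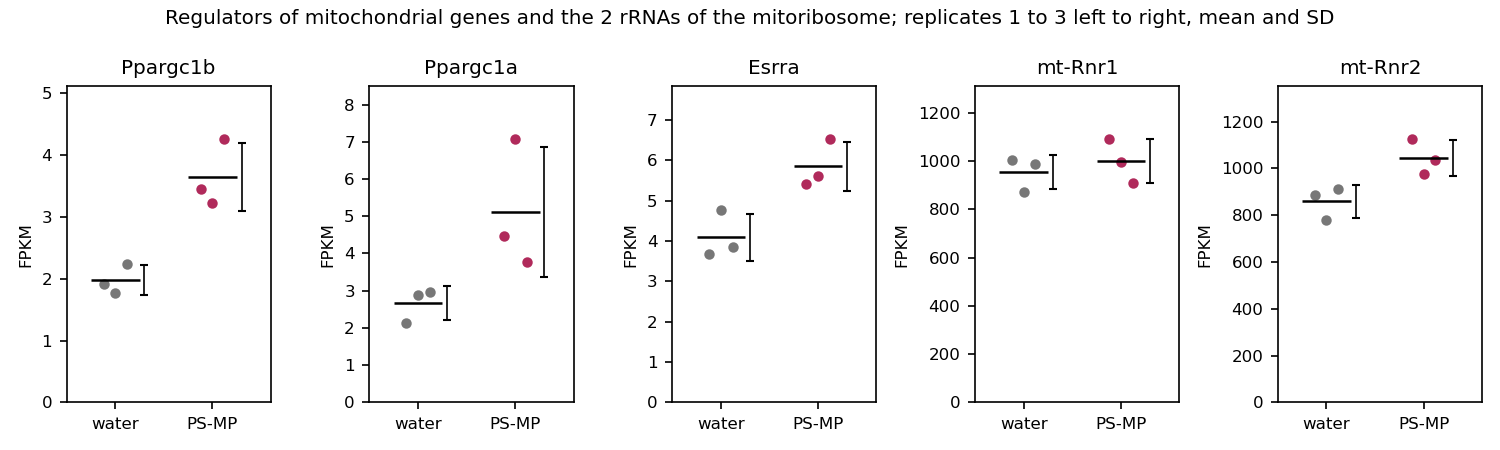
FPKM in each library, with mean and SD (n = 3 per group), of the regulators Ppargc1b, Ppargc1a and Esrra and of the ribosomal RNAs mt-Rnr1 and mt-Rnr2; the vertical axes start at 0. The PS-MP libraries lie above the water libraries in each panel except mt-Rnr1, and none of the 5 passed the adjusted threshold in limma-trend.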

How the data were processed

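The authors deposited 1 FPKM value per gene for each of 6 liver libraries. Per the submitters' processing notes, CASAVA, FastQC, MultiQC, Trimmomatic 0.38, HISAT2 2.1.0, featureCounts 1.6.0 and DESeq2 1.22.1 were used. Those notes name the build GRCh38, whereas all 55536 identifiers are those of mouse GENCODE M21 on GRCm38. Strand use and counting of reads or read pairs are not given in the sources used here, and "reads" stands for either. FPKM times merged exon length gave whole reads within 0.001 for 100.0% of the genes above 0, which gave each library's depth, CPM and the input of limma-voom.

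From these values, limma-trend (limma 3.58.1, R 4.3.3) was fitted to log2(FPKM + 0.5) over all 6 libraries with group as the only term. Fold changes on that scale understate changes of low genes. The procedure was run on simulated data. The simulated fold changes were larger than those of the members, so its power for such small differences was not tested. Members named with every library's value were the 5 lower and 5 higher with the smallest unadjusted p and the 3 most and 3 least abundant of each subunit. In each list of related genes, the 2 with the smallest p were named; other named genes were chosen for their role or after their values were seen. Symbols of ribosomal protein kinases (Rps6k), Rps19bp1 and pseudogenes were left out of the cytosolic list, and its genes are given by count. Members and lists were chosen with earlier results of these data known. Alternatives were other pseudocounts, low-count rules and scalings, limma-voom, robust empirical Bayes, a replicate block, subunits by structure and leaving out libraries.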

Additional observations from a re-analysis of the deposited data

How the results depend on the processing

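No member passed an adjusted p of 0.05 in limma under any of the 17 settings run, and the lowest adjusted p of a member was 0.166, with the replicate block. Of the 77 members, 40 kept their sign in all 17, and 36 of those were negative. The replicate block, the low-count rules and robust empirical Bayes cannot move a member's fold change, so they could not turn a sign. Leaving out 1 library at a time gave a median of -0.10 to -0.03 for all members, -0.10 to -0.05 for the large and -0.09 to -0.03 for the small subunit, with 51 to 62 members negative. The difference of the subunit medians ran from -0.023 to 0.016, and its sign turned without PS-MP replicate 1 or 3. The count of members whose groups do not overlap ran from 14 to 32 (18.2% to 41.6%), beside 26.8% to 32.3% of all genes tested in the same settings, since fewer libraries overlap less by construction. The member share was above that of all genes only without water replicate 3 (41.6% against 32.1%). Over all genes, 65 changed, and without 1 library 0 to 33 (0 without water replicate 3, with 1638 at an unadjusted p of 0.05 in limma-trend, 3 without water replicate 1, 30 without water replicate 2, and 33, 15 and 12 without PS-MP replicates 1, 2 and 3). The count was 133 with limma-voom and 0 with no low-count rule (2064 at an unadjusted p of 0.05).

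The labels number the replicates alike in both groups, but same-numbered libraries did not deviate together (r = -0.04, 0.05 and -0.01 over genes). The values thus gave no sign of pairing, although 3 libraries per group cannot exclude it. With the replicate block, 23 of 13299 genes and 0 members changed. The block cannot move a fold change in this balanced design, so the members' median of -0.053 was the same by construction.

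In an alternative chosen after seeing the data, the 3 libraries with Ucp1 reads (water replicates 1 and 3 and PS-MP replicate 3) were left out. This leaves 1 water library, replicate 2, against 2 PS-MP libraries, and the lone library is assumed to vary like the others. It gave 0 changed genes (1048 at an unadjusted p of 0.05 in limma-trend), a small-subunit median of -0.13, a difference of medians of 0.041 and 55 members without overlap (71.4%, beside 71.1% of all genes tested), with 59 of 77 negative. Ppargc1b was the only gene named in the text to change its side of the threshold, in limma-voom and with robust empirical Bayes. Reads per member set the precision: 32 to 758 per library and 3 libraries per group.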
